A study of Mus musculus with 6 samples.

Results

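The MYC, MAX and MXD network was followed here in mouse embryonic fibroblasts (MEFs), cells grown out of mouse embryos, of a line described as p53-deleted. The members were taken by name as Myc, Mycn, Mycl, Max, Mxd1, Mxd3, Mxd4, Mxi1, Mnt and Mga, which are 10 of the 54752 genes in the deposited count table, and all 10 passed the filter on low counts. Cells had received by lentivirus either a hairpin RNA against p19ARF (shARF, genotype given as ARF knockdown, 3 libraries) or a negative control hairpin (shNT, genotype given as WT, 3 libraries). The labels give the p53-deleted line for both groups, although the genotype of shNT reads WT. Trp53 was at 2.61 ± 0.483 CPM in shARF and 2.26 ± 1.2 CPM in shNT (SD, n = 3 each, edgeR adjusted p = 0.674). CPM are counts per 1 M counts of the tested genes in a library, after scaling by a normalization factor (TMM). Both groups share the neo tag in their names and the same serum-containing medium. The titles call the replicates biological, but the labels do not give the mouse strain, the age of the embryos, the number of hairpins or whether replicates were separate infections. P-values therefore refer only to the spread among these 6 libraries, and that spread could be technical.

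MYC proteins are transcription factors of the basic helix-loop-helix leucine zipper class that bind DNA only as a dimer with MAX. MYC-MAX dimers activate genes of growth, ribosome synthesis and metabolism from E-boxes, the core of which reads CACGTG. MXD proteins, MNT and MGA also pair with MAX, compete for the same sites and mostly repress, the MXD proteins and MNT by bringing in the SIN3 histone deacetylase complex. ARF is best known for freeing p53 from MDM2 and has also been reported to bind MYC.

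Promoters are shown for the members in which the motifs searched were found, each from 250 bases before to 50 bases after the annotated start (RefSeq, GRCm38.p6), 5′ to 3′ on the strand of the gene. RefSeq windows were at hand for 9 of the 10 members, Myc being the exception. Capitals mark CACGTG in Max, Mxd4 and Mnt and the E2F-type letters TTTNGCGC, on either strand, in Mycn, where a forward match overlaps a reverse one and 1 more forward match follows. The windows are chr12:12941787-12942086 (Mycn, minus strand), chr12:76962199-76962498 (Max, minus strand), chr5:34187661-34187960 (Mxd4, minus strand) and chr11:74830674-74830973 (Mnt, plus strand).
Mycn: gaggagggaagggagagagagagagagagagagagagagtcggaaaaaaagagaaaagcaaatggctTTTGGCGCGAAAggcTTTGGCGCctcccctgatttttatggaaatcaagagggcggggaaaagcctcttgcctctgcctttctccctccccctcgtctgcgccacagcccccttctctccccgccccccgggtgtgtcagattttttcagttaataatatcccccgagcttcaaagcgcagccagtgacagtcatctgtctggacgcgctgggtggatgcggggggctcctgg
Max: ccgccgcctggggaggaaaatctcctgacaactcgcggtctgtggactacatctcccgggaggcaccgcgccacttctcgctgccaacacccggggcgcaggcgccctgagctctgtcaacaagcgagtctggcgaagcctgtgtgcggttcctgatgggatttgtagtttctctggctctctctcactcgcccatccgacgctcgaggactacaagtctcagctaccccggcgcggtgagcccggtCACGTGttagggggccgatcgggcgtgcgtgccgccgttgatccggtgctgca
Mxd4: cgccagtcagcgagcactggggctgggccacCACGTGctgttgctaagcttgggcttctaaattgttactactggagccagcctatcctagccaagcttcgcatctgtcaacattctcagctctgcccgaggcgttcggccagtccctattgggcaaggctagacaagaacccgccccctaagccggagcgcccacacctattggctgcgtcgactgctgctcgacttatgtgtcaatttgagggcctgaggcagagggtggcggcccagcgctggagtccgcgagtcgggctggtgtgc
Mnt: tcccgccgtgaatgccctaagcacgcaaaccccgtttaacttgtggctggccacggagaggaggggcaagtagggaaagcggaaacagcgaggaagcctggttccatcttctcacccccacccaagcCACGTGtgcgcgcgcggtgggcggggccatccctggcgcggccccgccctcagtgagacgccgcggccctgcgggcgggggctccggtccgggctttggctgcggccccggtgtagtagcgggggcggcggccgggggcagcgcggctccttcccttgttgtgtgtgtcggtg
CACGTG reads the same on both strands and was found in the windows of 3 of the 9 members, against 7.15% of all 32851 windows. Shares of all windows are not shares of genes, since a gene can have several windows, as Mxi1 does. Its first letter lay 3 bases before the start in Max, 219 before it in Mxd4 and 123 before it in Mnt. TTTNGCGC was found in 1 member, Mycn, with first letters 183, 179 and 168 bases before the start, and in 1.38% of all windows. A match says only that these letters are there.

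Total counts were 45.2 to 46.3 M in the shARF libraries and 40.3 to 47 M in the shNT libraries. Of 17128 genes tested, 56.4% differed between the groups (28.8% higher and 27.7% lower in shARF, quasi-likelihood test of edgeR, adjusted p under 0.05), so a call is common in this comparison. With library sizes alone as the scaling, 40.6% of the calls were toward higher, against 51.0% with the scaling used here (TMM). The target gene Cdkn2a was at 102 ± 5.57 CPM in shARF and 224 ± 6.91 CPM in shNT (SD, n = 3 each; log2 fold change -1.14, edgeR adjusted p = 2.52e-06), but ARF and p16INK4a are counted there as 1 gene. The groups also differed in genes that mark the sex and body position of cells: Xist was at 45.7 and 387 CPM in shARF and shNT, Kdm5d of the Y chromosome at 19.5 and 0.782 CPM, Hoxb9 at 6.41 and 103 CPM and Hoxd13 at 127 and 25.6 CPM. Ddx3y, also of the Y chromosome, was at 85.3 CPM in shARF and 24.4 CPM in shNT, so counts of Y genes were present in both groups. All 10 fibroblast markers examined passed the filter on low counts, with a summed level of 24300 to 24500 CPM in shARF and 21000 to 22600 CPM in shNT, although Pdgfra (-2.46 on the log2 scale) and Dcn (-2.12) were lower in shARF. Of other cell types, the 6 blood cell markers summed to 1.52 to 2.03 CPM in shARF and 6.73 to 7.47 CPM in shNT, with Adgre1 among those at 0 in all libraries. The 6 endothelial markers summed to 2.99 to 3.8 CPM in shARF and 3.12 to 3.43 CPM in shNT (Cdh5 at 0), a sum in which Kdr was higher (3.13 CPM in shARF and 0.282 CPM in shNT) and Tek (0.067 and 2.16 CPM) and Vwf (0.195 and 0.675 CPM) were lower in shARF. The 6 epithelial markers summed to 5.26 to 5.68 CPM in shARF and 15.3 to 17.5 CPM in shNT (Esrp1 at 0), with Cdh1 higher (4.8 and 2.14 CPM) and Krt18 lower (0.15 and 12.7 CPM). The 6 neural markers summed to 99.6 to 109 CPM in shARF and 89 to 93 CPM in shNT (Sox10 and Rbfox3 at 0), with Map2 and Tubb3 higher (0.39 and 0.49 on the log2 scale) and Stmn2 lower (-1.62). The 6 mesothelial markers summed to 120 to 124 CPM in shARF and 105 to 108 CPM in shNT. Of that list Msln was lower (54.4 CPM in shARF and 84.2 CPM in shNT), Upk1b and Lrrn4 had counts only in shARF, and Upk3b (12 and 0.0137 CPM) and Wt1 (9.54 and 0.102 CPM) were nearly limited to it. The part of these differences in the results on the network was not tested, and any difference between the cultures other than the hairpin cannot be told apart from the hairpin.

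In shARF, Myc, Mycn and the shared partner Max rose, the antagonists Mxd1, Mxd4 and Mnt fell, and Mycl, Mxd3, Mxi1 and Mga did not pass the test. That is 6 of 10 members (60%), a share close to the 56.4% of all genes. It was 3 of 10 in each direction, against 28.8% and 27.7% of all genes. The median log2 fold change was -0.01 over the members and -0.01 over all genes tested. The number called lower was 5 with upper quartile factors and with library sizes alone, where Mxi1 and Mga passed as well. Under these scalings 5094 and 5874 of all genes were called lower, against 4737. For 9 of the 10 members no shARF library overlapped the shNT range in CPM, against 64.6% of all genes. These are levels in bulk RNA, in which fewer cells with a transcript and less of it per cell cannot be told apart.

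**Figure D1:**
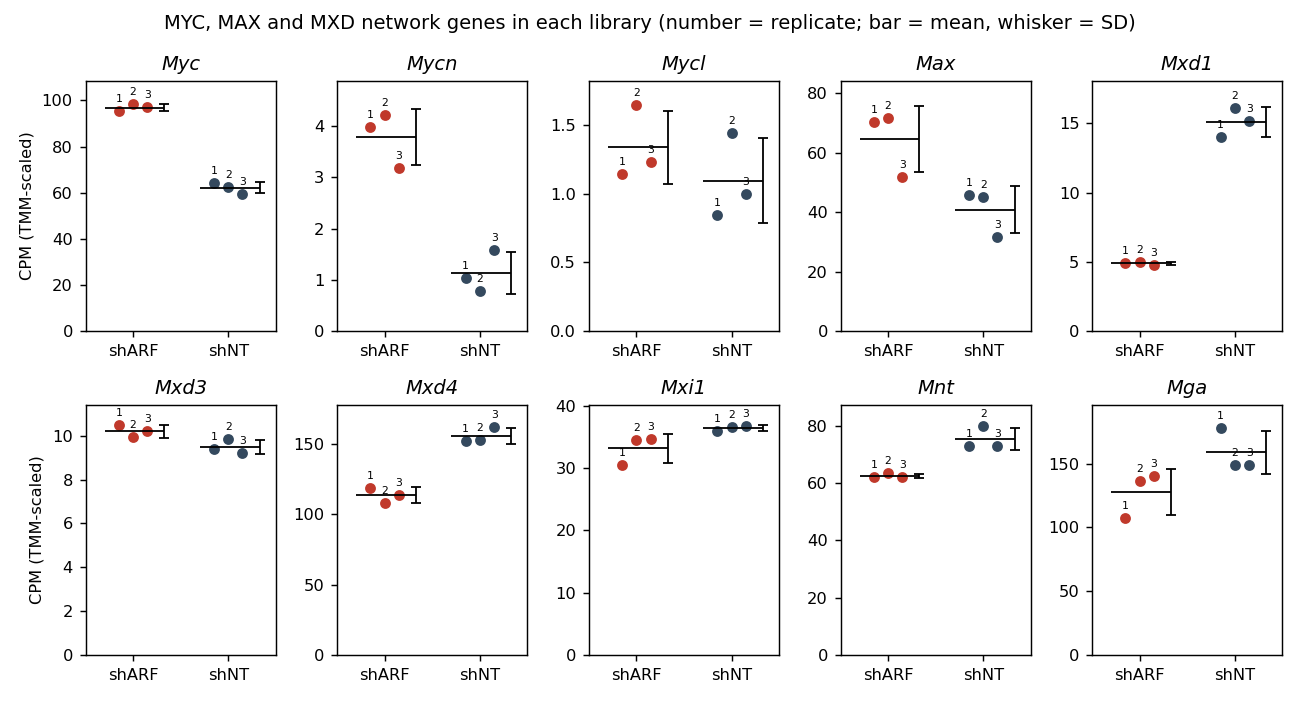
Level of each member in each library, in TMM-scaled CPM on an axis from 0, with shARF left of shNT; numbers give the replicate, bars the mean and whiskers the SD over 3 libraries. Myc lay between 95.2 and 98.3 CPM in shARF and between 59.6 and 64.3 CPM in shNT, Mxd1 fell to the smallest share of its shNT mean (32.4%), and Mycl is the gene whose groups overlap.

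Myc (ENSMUSG00000022346.15, GRCm38 chr15:61985391-61990374, plus strand), the family member that most dividing cells use, was at 95.2, 98.3 and 97.0 CPM in shARF and at 64.3, 62.5 and 59.6 CPM in shNT. The groups stood well apart, with an SD in shARF (1.58 CPM) near the 1.48 CPM that counting alone would give. In shNT the SD was 2.37 CPM, above the 1.17 CPM of counting alone. Myc rose to 156% of the shNT level, 0.64 on the log2 scale (SE 0.038, edgeR adjusted p = 1.37e-05). Mycn (ENSMUSG00000037169.15, chr12:12936093-12941914, minus strand), the paralog best known from embryonic tissue and neuroblastoma, was at 3.97, 4.22 and 3.18 CPM in shARF and at 1.04, 0.78 and 1.58 CPM in shNT. These levels rest on 178, 185 and 142 counts in shARF and on 48, 38 and 65 counts in shNT, and every shARF library was above every shNT library. Mycn rose 3.36-fold (log2 fold change 1.75, SE 0.26, adjusted p = 0.00109). Mycl (ENSMUSG00000028654.13, chr4:122995652-123002485, plus strand), the paralog first found in lung cancer, was at 1.14, 1.64 and 1.23 CPM in shARF and at 0.847, 1.44 and 0.996 CPM in shNT. The groups overlapped, and a log2 fold change of 0.28 (SE 0.25, adjusted p = 0.374) did not pass, with 39 to 72 counts a library. Pvt1, the long noncoding RNA downstream of Myc, was at 12.9 ± 0.615 CPM in shARF and 14.1 ± 3.87 CPM in shNT (adjusted p = 0.608).

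Max (ENSMUSG00000059436.13, chr12:76937269-76962201, minus strand), the shared partner of all the others, was at 70.2, 71.7 and 51.7 CPM in shARF and at 45.7, 45.2 and 31.7 CPM in shNT. The groups did not overlap, but in each group the library numbered 3 lay well under the other two. The SD of 11.1 CPM in shARF and 7.95 CPM in shNT compares with 1.2 and 0.954 CPM from counting alone, so the libraries differ in Max by far more than their depth sets. Max was called higher (log2 fold change 0.66, SE 0.18, adjusted p = 0.0175), and this call was the least stable of the 6. It was lost without shARF replicate 1 (adjusted p = 0.0564), without shARF replicate 2 (0.0554), at a threshold of 0.01 and with fold changes centred on the surrounding 10 Mb (0.34, adjusted p = 0.153). Over all alternatives its adjusted p ran between 0.000181 and 0.153. With a block on replicate number in the edgeR model, the log2 fold change of Max was 0.66 (adjusted p = 0.000395). Deviations of libraries sharing a number correlated at -0.157, -0.0568 and -0.0772, however, so these correlations give no sign that equal numbers are pairs. With both libraries numbered 3 left out, an alternative chosen after seeing the data, the log2 fold change of Max was 0.64 (adjusted p = 0.000556). A short transcript of uncertain status, Gm47218, lies within Max on the same strand and held 156 counts over the 6 libraries.

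Among the MXD genes, whose products pair with MAX and bring in SIN3, the levels moved unequally. Mxd1 (ENSMUSG00000001156.9, chr6:86647042-86669161, minus strand), which is induced when many cell types differentiate, was at 4.89, 5.0 and 4.81 CPM in shARF and at 14, 16.1 and 15.2 CPM in shNT. It fell to 32.4% of the shNT level (log2 fold change -1.62, SE 0.072, adjusted p = 3.67e-06), the largest fall among the 10 genes. Mxd4 (ENSMUSG00000037235.13, chr5:34173883-34187720, minus strand), the most abundant MXD transcript here, was at 119, 108 and 114 CPM in shARF and at 152, 153 and 162 CPM in shNT. All shARF libraries were lower, by -0.46 on the log2 scale (SE 0.045, adjusted p = 0.000161), or 72.8% of the shNT level. Mxi1 (ENSMUSG00000025025.13, chr19:53310518-53375810, plus strand) was at 30.5, 34.4 and 34.6 CPM in shARF and at 35.9, 36.6 and 36.7 CPM in shNT. The shARF libraries were all below the shNT libraries by a small margin, without passing the test (-0.13, SE 0.058, adjusted p = 0.0869). Mxi1 passed it as lower with upper quartile factors (adjusted p = 0.0462), with library sizes alone (0.0142) and when centred on the surrounding 10 Mb (-0.28, adjusted p = 0.0052) (all alternatives, 0.0052 to 0.195). Mxd3 (ENSMUSG00000021485.14, chr13:55325168-55329823, minus strand), the MXD gene tied to S phase and proliferating cells, was at 10.5, 9.92 and 10.2 CPM in shARF and at 9.38, 9.83 and 9.21 CPM in shNT. Its log2 fold change of 0.11 (SE 0.059, adjusted p = 0.159) did not pass. The 3′ end of Mxd3 overlaps by 105 bases that of Prelid1 on the other strand, a gene with 274 ± 5.23 CPM in shARF and 234 ± 5.91 CPM in shNT (log2 fold change 0.23), and reads of the overlap may be shared if counting ignored strand, which no source used here states.

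MNT and MGA are larger antagonists that also pair with MAX. Mnt (ENSMUSG00000000282.12, chr11:74830920-74845725, plus strand), a repressor present in both resting and dividing cells, was at 61.9, 63.3 and 62.0 CPM in shARF and at 73.0, 79.9 and 73.0 CPM in shNT. The shARF libraries lay close together below all shNT libraries, and Mnt fell to 82.9% of the shNT level (-0.27, SE 0.045, adjusted p = 0.00201). Mga (ENSMUSG00000033943.15, chr2:119897228-119969581, plus strand), a scaffold of a variant Polycomb complex, was at 107, 136 and 140 CPM in shARF and at 178, 149 and 149 CPM in shNT. The lowest library was shARF replicate 1 and the highest shNT replicate 1, and the SDs of 17.7 and 16.9 CPM were far above the 1.7 and 1.87 CPM of counting alone. The log2 fold change of -0.31 (SE 0.12, adjusted p = 0.0574) did not pass. It did with DESeq2 (adjusted p = 0.0107), upper quartile factors (0.0434) and library sizes alone (0.0239) (all alternatives, 0.0107 to 0.178).

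**Figure D2:**
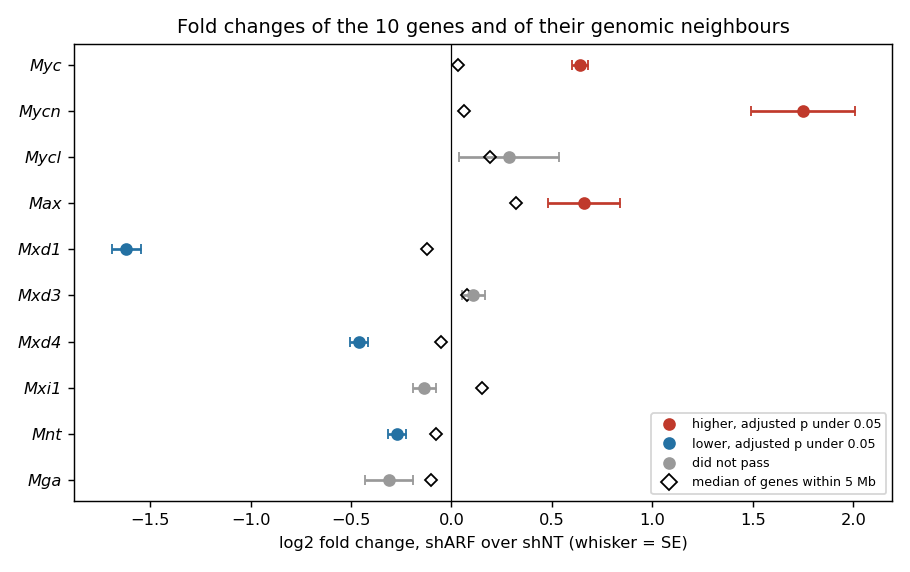
Log2 fold change of each member, shARF over shNT, with its SE (whiskers), and the median log2 fold change of the other tested genes within 5 Mb (open diamonds). Mxd1 at -1.62 and Mycn at 1.75 lie far from their neighbours, whereas Max at 0.66 stands beside neighbours with a median of 0.32.

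The members lie on 9 chromosomes, and neighbouring genes moved with some of them. The 83 other tested genes within 5 Mb of Max had a median log2 fold change of 0.32, with 49.4% of them called higher. Around Mycn, on the same chromosome, the median of 47 genes was 0.06, and around Myc that of 40 genes was 0.03. The medians were -0.12 around Mxd1, -0.05 around Mxd4, -0.08 around Mnt and -0.10 around Mga. Around Mycl and Mxi1 they were 0.19 and 0.15, opposite in sign to the fold change of Mxi1 itself. Centred on this window, Myc, Mycn, Mxd1, Mxd4 and Mnt still passed the test in the same direction and Max did not. The adjoining genes did not all follow the member. Snrnp27, upstream of Mxd1, was at 42.2 ± 0.631 CPM in shARF and 40.8 ± 1.0 CPM in shNT (adjusted p = 0.326). Mettl16, upstream of Mnt, was higher in shARF (0.30, adjusted p = 0.000648) while Sgsm2 downstream was lower (-0.39, adjusted p = 0.000519). Mapkbp1, next to Mga, was lower by nearly the same amount as Mga (-0.32, adjusted p = 0.000291). Smndc1, next to Mxi1, and Trit1, next to Mycl, were higher (0.27 and 0.19, adjusted p = 0.000466 and 0.0298), and Haus3, next to Mxd4, and Fntb, next to Max, did not pass (0.26 and 0.19, adjusted p = 0.0913 and 0.593).

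Divided by length, to compare genes with each other, Myc was the most abundant member in both groups, at 35.6 ± 0.58 CPM per kb of merged exons in shARF and 22.9 ± 0.874 in shNT. In shARF it was followed by Max (17.9 ± 3.09), Mnt (13.5 ± 0.175), Mxd4 (13.4 ± 0.692) and Mga (8.33 ± 1.16), then Mxi1 (4.86), Mxd3 (4.31), Mycn (1.15), Mxd1 (0.692) and Mycl (0.331). In shNT the order was Mxd4 (18.4 ± 0.632), Mnt (16.3 ± 0.864), Max (11.4 ± 2.21) and Mga (10.3 ± 1.1) after Myc, then Mxi1 (5.33), Mxd3 (4.0), Mxd1 (2.14), Mycn (0.344) and Mycl (0.271). Max thus had rank 2 in shARF and rank 4 in shNT, and Mycn and Mxd1 traded places near the bottom. Levels of Mnt and Mxd4 in shARF overlapped over libraries, as did those of Max and Mga and of Mycn and Mycl in shNT. With the length of the longest transcript in place of merged exons, Mxd4 came before Myc in shNT (33.7 and 26.6 CPM per kb), so the order depends on the length used.

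Summed per kb, the 3 MYC genes were at 36.5, 37.9 and 37.0 in shARF libraries and at 24.2, 23.6 and 22.7 in shNT libraries, of which Myc made up 96.0% and 97.4%. The 4 MXD genes were at 23.6, 22.6 and 23.5 in shARF and at 29.2, 29.9 and 30.5 in shNT, of which Mxd4 made up 57.5% and 61.6%, and Mxd1 2.98% and 7.15%. MYC transcripts per kb thus exceeded MXD transcripts in every shARF library and stayed below them in every shNT library. This holds for the MXD genes alone, without the antagonists Mnt (13.4, 13.7 and 13.4 in shARF) and Mga (7.01, 8.87 and 9.12 in shARF). With both added, MYC transcripts per kb would lie below the antagonists in every library of either group. The ratio of MYC to MXD transcripts was 1.54, 1.68 and 1.58 in shARF and 0.83, 0.79 and 0.742 in shNT, a mean ratio 2.03 times as high in shARF. With longest transcripts the means were 1.14 ± 0.0538 in shARF and 0.551 ± 0.0315 in shNT (SD, n = 3 each). The ratio of Max to MYC transcripts did not separate the groups, at 0.534, 0.526 and 0.389 in shARF and 0.525, 0.532 and 0.389 in shNT. These sums are descriptions of transcript levels, with no test, and say nothing of protein.

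**Figure D3:**
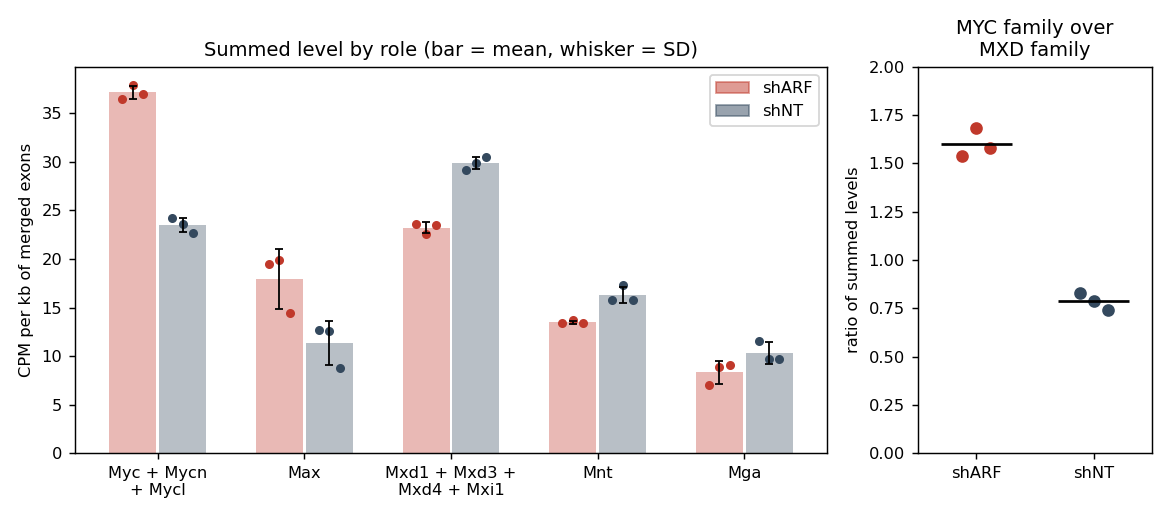
Left, summed level of the members by role in CPM per kb of merged exons, with shARF left of shNT in each pair (bars are means, whiskers SD, points libraries); right, the ratio of summed MYC genes to summed MXD genes in each library. The ratio is 1.54 to 1.68 in shARF and 0.742 to 0.83 in shNT.

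The wider network was read from lists chosen with earlier results of these data known. In the parallel branch around MLX, a MAX-like partner of glucose-sensing factors, Mlx and Mlxip (which encodes MondoA) were lower in shARF, 2 of the 4 genes tested (50%, against 27.7% of all genes). Mlx was at 13.9, 14.2 and 10.8 CPM in shARF and at 26.1, 25.1 and 13.3 CPM in shNT, so that the groups overlapped (-0.73, SE 0.26, adjusted p = 0.048). Mlxip was at 56.8 ± 1.84 CPM in shARF and 65.8 ± 1.74 CPM in shNT (-0.21, adjusted p = 0.00383), and the MondoA target Txnip did not pass (0.63, adjusted p = 0.0636). Neither did Arrdc4 of the same list, with a fold change of the other sign (-0.205, adjusted p = 0.0772). The number called lower in this branch was 1 without shARF replicate 2, shARF replicate 3, shNT replicate 1 or shNT replicate 2, and without shNT replicate 2 the number called higher was 1 instead of 0.

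Of 15 MYC cofactor genes, 4 were higher and 4 lower, or 26.7% each way, near the 28.8% and 27.7% of all genes. Ruvbl2, a helicase of MYC-bound chromatin complexes, rose to 129 ± 2.58 CPM in shARF, against 84.4 ± 3.06 CPM in shNT (0.61, adjusted p = 1.21e-05), and Smarcb1 and Kat2a rose by less (0.37 and 0.26). Hcfc1, a host cell factor that binds MYC, was at 351 ± 5.47 CPM in shARF and 459 ± 9.71 CPM in shNT (-0.39, adjusted p = 1.49e-05), and Bptf (-0.34) and Trrap (-0.26), a scaffold of histone acetyltransferases, also fell. With library sizes alone 8 were called lower, a scaling under which 5874 of all genes were called lower, against 4737. Of 15 SIN3 corepressor genes, 7 were higher and 3 lower (46.7% and 20%, against 28.8% and 27.7% of all genes), with the deacetylase paralogs Hdac2 and Hdac1 on opposite sides. Sin3b was at 89.2, 87.9 and 85 CPM in shARF and at 129, 130 and 138 CPM in shNT (-0.60, adjusted p = 1.67e-05), beside genes of its surrounding 10 Mb with a median of -0.37. Hdac2 rose (0.31, adjusted p = 8e-05), as did Sap18 (0.26) and Arid4a (0.35, next to a window median of 0.39), while Hdac1 (-0.13, adjusted p = 0.00937) and Sap30 (-0.13, adjusted p = 0.0461) fell. The number called higher was 4 with library sizes alone and 3 when centred on the window. Of all genes, 4023 and 4951 were called higher in these settings, against 4930.

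Among 9 partners of MGA in its Polycomb complex, 5 were higher and 2 lower (55.6% and 22.2%, against 28.8% and 27.7% of all genes). Yaf2 and Rybp, which encode alternative subunits, went opposite ways: Yaf2 was at 50.2 ± 2.22 CPM in shARF and 28.5 ± 0.604 CPM in shNT (0.82, adjusted p = 1.13e-05), and Rybp at 59.9 ± 2.48 CPM in shARF and 92.5 ± 2.83 CPM in shNT (-0.63, adjusted p = 2.7e-05). Ring1 (0.74) and L3mbtl2 (0.47) rose, and Cbx3 fell slightly (-0.08, adjusted p = 0.0313). The number called lower was 1 without shARF replicate 2, shARF replicate 3 or shNT replicate 2. Of 15 genes that act on MYC stability, 8 were higher and 4 lower (53.3% and 26.7%, the share lower being near that of all genes). Skp2, a ubiquitin ligase subunit for MYC and p27, was at 138, 135 and 138 CPM in shARF and at 82.4, 81.3 and 81.6 CPM in shNT. That difference (0.74, SE 0.025, adjusted p = 1.21e-06) was far beyond the spread of either group. Usp36, a nucleolar deubiquitinase of MYC (0.57, adjusted p = 1e-05), and Gsk3b, a kinase that marks MYC for breakdown (0.54, adjusted p = 1.68e-05), rose too. Usp28 (-0.31), Cip2a (-0.16) and Stub1 (-0.12) fell, and Fbxw7, the ligase subunit that reads the mark, did not pass (-0.31, adjusted p = 0.126). Without shARF replicate 3 or shNT replicate 2 the number called lower was 2. These genes act on the protein in both directions, and MYC protein was not measured here.

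**Figure D4:**
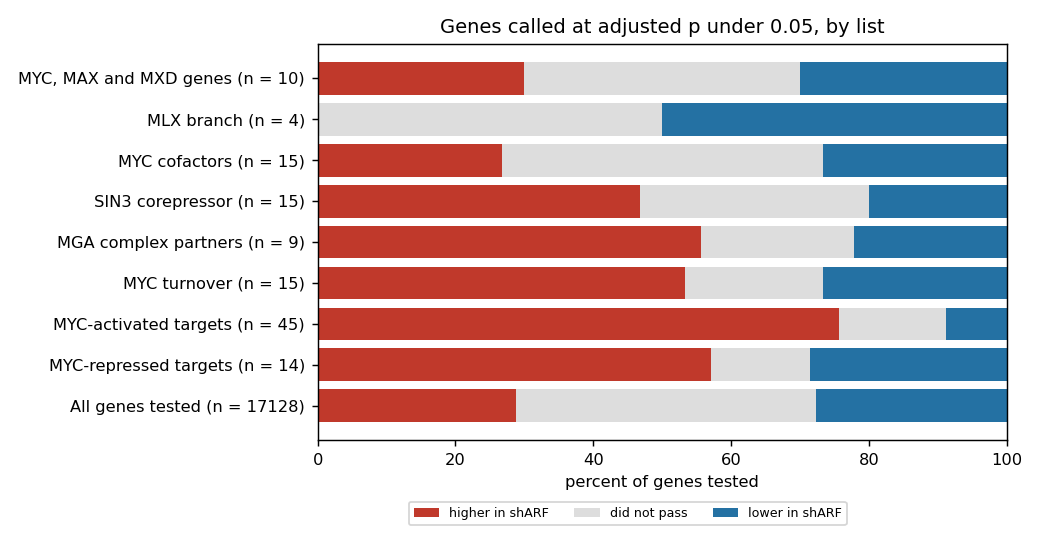
Percent of genes tested in each list that were called higher (left part) or lower (right part) in shARF at an adjusted p under 0.05, with all 17128 genes tested in the lowest bar. The 10 members resemble all genes, with 30% called each way, whereas 75.6% of the MYC-activated targets were called higher, against 28.8% of all genes.

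Genes known to be activated by MYC were mostly higher in shARF. Of 45 such genes, 34 rose and 4 fell (75.6% and 8.89%, against 28.8% and 27.7% of all genes). Only 2 of the 45 were called with a change of at least 2-fold, against 2460 of all 17128 genes tested, a smaller share than that of all genes. Their median was 0.29 on the log2 scale, against -0.01 over all genes tested. Many of them make ribosomes, a theme known beforehand to be higher in these shARF libraries, so their count is no independent support. By role, 18 of 20 ribosome biogenesis genes and 8 of 10 genes of metabolism and uptake were higher and 0 lower in either, with medians of 0.40 and 0.45. Ccnd2, which encodes cyclin D2, was at 1310, 1340 and 1320 CPM in shARF and at 507, 513 and 490 CPM in shNT (1.39, adjusted p = 1.51e-07). Hk2, a hexokinase of glycolysis, was at 160, 154 and 150 CPM in shARF and at 64.5, 62.6 and 60.9 CPM in shNT (1.3, adjusted p = 5.48e-07). Both stood far outside the spread of their groups, and Shmt2, the mitochondrial serine hydroxymethyltransferase, rose by 0.74 (adjusted p = 1.45e-06). The 5 cell cycle genes were split: Ccnd2 and Cdc25a were higher and Cdk4 (-0.33), Mcm4 (-0.10) and Mcm5 (-0.12) lower. The translation factor Eif4a1 was lower as well (-0.15, adjusted p = 0.00138). With library sizes alone 7 of the 45 were called lower, and centred on the surrounding 10 Mb none was (0), while 28 to 36 were called higher over the alternatives. Of all genes, 5874 were called lower with library sizes alone and 4487 when centred, against 4737.

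Genes known to be repressed by MYC did not go one way. Of 14, 8 rose and 4 fell (57.1% and 28.6%, against 28.8% and 27.7% of all genes). Calls with a change of at least 2-fold numbered 6 of the 14, against 2460 of all 17128 genes tested. Their median was 0.30 on the log2 scale, against -0.01 over all genes tested. Gadd45a, a growth arrest gene, was at 30.3, 30.4 and 38.8 CPM in shARF and at 10.0, 9.14 and 8.84 CPM in shNT (1.83, adjusted p = 1.65e-05). Ndrg1 (0.52) and Cebpa (1.18), a differentiation factor, also rose. Cdkn1c, which encodes the CDK inhibitor p57, was at 5.6, 4.45 and 6.11 CPM in shARF and at 17.3, 20.4 and 17.5 CPM in shNT (-1.77, adjusted p = 3.82e-05), and Gas1, a growth arrest gene of the cell surface, at 314 ± 8.17 CPM in shARF and 656 ± 42.4 CPM in shNT (-1.06, adjusted p = 4e-06). Ndrg2 fell too (-1.49, adjusted p = 0.000448). Col1a1 and Pdgfrb of this list are fibroblast markers as well. Which of these genes MYC acts on in these cells cannot be read from transcript levels.

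**Figure D5:**
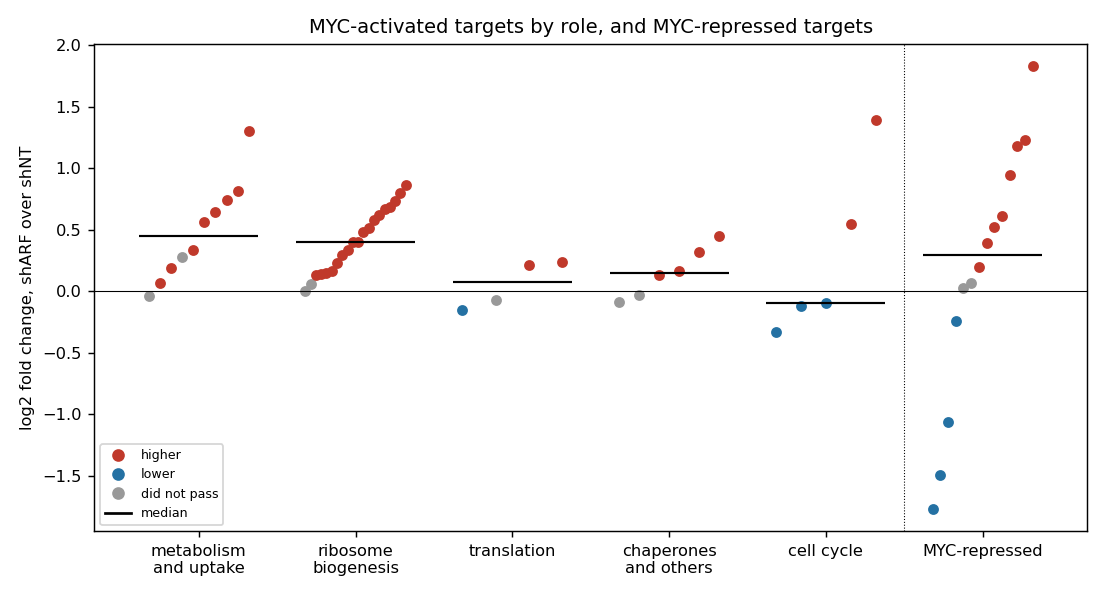
Log2 fold change, shARF over shNT, of the 45 MYC-activated targets by role and, right of the dotted line, of the 14 MYC-repressed targets (points are genes, black bars medians). Ribosome biogenesis genes lie between 0.01 and 0.87, whereas the repressed targets spread from -1.77 to 1.83.

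Likeness to Myc was measured in 11051 other genes that averaged 5 CPM or more. Those whose log2 CPM over the 6 libraries was most like that of Myc were Zfp992, Zfp367 and Itpr2, with Pearson r of 0.9997, 0.9996 and 0.9995. Zfp367 was at 74.9, 77.4 and 75.6 CPM in shARF and at 38.5, 37.6 and 35 CPM in shNT. Since 892 genes had an r of at least 0.99 and the libraries fall into 2 clusters by group, this likeness mostly restates the difference between shARF and shNT.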

How the data were processed

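The authors deposited whole-number counts per gene in 1 table of 54752 Ensembl IDs, with no normalization. Per the submitters' processing notes the build was GRCm38, and the tools were StringTie 1.3.2, HISAT2 2.1.0, DESeq2 1.34.0, Trim Galore 0.4.1, Picard 2.13.2 and SAMtools 0.1.19, named without role or order. No source used here gives the counting tool, the annotation, the strand setting or any removal of duplicates. Unstranded counting would mix overlapping genes, and duplicate removal would lower abundant ones. Another 6 columns of values could be tied to no sample and were left out. Columns of shARF carry another index number than the titles and were matched on group, tag and replicate. Symbols and lengths came from GENCODE M21 (54723 IDs matched).

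Groups were compared in R 4.3.3 by edgeR 4.0.16 (quasi-likelihood F test, TMM, filterByExpr with a minimum count of 10 and total of 15, group as the sole term, two-sided, Benjamini-Hochberg over 17128 genes, threshold 0.05, prior count 0.125). CPM are scaled by TMM factors. No library was taken as deposited more than once, since a chi-square of counts averaged 13.8 to 18.7 a gene within groups and 137 to 145 across them. Steps were tested on simulated counts. Members and lists were chosen with earlier results of these data known. Named were all members, Cdkn2a, genes beside the members, up to 3 called genes a direction from each list by smallest p, and the 3 genes most like Myc. Others, such as Fbxw7, Txnip, Mcm5, Cdc25a, Wt1 and the sex and HOX genes, were named after their values were seen. Alternatives were DESeq2 1.42.0, limma-voom (limma 3.58.1), RLE, upper quartile and library-size scaling, no filter or at least 1 CPM in 3 libraries, a block on replicate number, centring on the 10 Mb window (at least 15 genes), each library left out in turn, and a threshold of 0.01.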

Additional observations from a re-analysis of the deposited data

How the results depend on the processing

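None of the 10 members changed direction under the 17 alternatives run, 1 of them chosen after seeing the data. Myc, Mycn, Mxd1, Mxd4 and Mnt passed in all 17, with log2 fold changes of 0.55 to 0.66, 1.54 to 2.17, -1.715 to -1.505, -0.55 to -0.41 and -0.36 to -0.19; Max passed in 13. The members called lower numbered 5 with upper quartile factors and 5 with library sizes alone, against 3. With library sizes alone, 8 MYC cofactors and 7 MYC-activated targets were called lower and 4 SIN3 genes higher. The calls over all genes shifted too, with 5874 lower and 4023 higher, against 4737 and 4930. Centring on the 10 Mb window gave 3 SIN3 genes higher, 0 MYC-activated targets lower, 1 MGA partner lower, 2 turnover genes lower, and 1 MLX branch gene each way. With no filter, and with a threshold of 0.01, the numbers called lower were 1 (MLX branch), 1 (MGA partners) and 2 (turnover). limma-voom gave 1 MLX branch gene each way. With both libraries numbered 3 left out, which is that alternative, 1 SIN3 gene, 1 MGA partner and 2 turnover genes were called lower. Leaving out 1 library at a time gave 0 to 1 MLX branch genes higher and 1 to 2 lower, 1 to 2 MGA partners lower and 2 to 4 turnover genes lower. Of all genes, 4503 of 27864 tested were called lower with no filter and 3520 of 17128 at a threshold of 0.01. The number called lower was 4762 of 17128 with limma-voom and 4309 of 17128 with the replicate block. It was 3940 of 17305 without both libraries numbered 3, and 4238 to 4440 with 1 library left out, where 17518 to 17617 genes were tested. The cause of these changes was not tested. Labels of both groups carry the numbers 1 to 3, but deviations of libraries with the same number correlated at -0.157, -0.0568 and -0.0772, and no library correlated best with its own number; the replicate block left 3 members higher and 3 lower and gave 2 turnover genes lower. Mycn and Mycl rest on the lowest counts of the 10 members, 38 to 185 and 39 to 72 a library.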

Other observations

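Max and Mlx, which encode the shared partners of the parallel branches of the network, were both lowest in the libraries numbered 3 of either group. Mlx was at 10.8 CPM in shARF replicate 3 and 13.3 CPM in shNT replicate 3, against 13.9 and 14.2 CPM in the other shARF libraries and 26.1 and 25.1 CPM in the other shNT libraries. Max was at 51.7 CPM in shARF replicate 3 and 31.7 CPM in shNT replicate 3. Fntb, the gene next to Max, varied over the libraries in another order, at 22.5, 38.7 and 22.3 CPM in shARF and 17.5, 28.7 and 27.2 CPM in shNT. The pattern was noticed after the values were seen, and its cause was not tested.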
